A study of Homo sapiens with 8 samples.

Results

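The DEAD and DEAH box RNA helicase genes were taken as the protein-coding genes of the RefSeq table (GRCh38.p14) whose symbol is DDX or DHX followed by digits and at most 1 letter. This rule found 54 of 20050 protein-coding genes, 38 of them DDX and 16 DHX. All m6A peaks that overlap their bounds by 1 bp or more were collected from the peak lists of both genotypes, which gave 59 of 29084 wild-type peaks and 62 of 23937 knockout peaks. The lists describe chromosome-associated RNA of HEK293T cells (a long-established line from human embryonic kidney), either parental (wild type) or with METTL3 knocked out (METTL3-/-). METTL3 is the catalytic subunit of the enzyme complex that places N6-methyladenosine (m6A) on RNA. Each genotype had 2 libraries immunoprecipitated (IP) with an m6A antibody kit and 2 input libraries, and each list stands for all 4 of them.

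DEAD and DEAH box proteins use ATP to unwind or remodel RNA and RNA-protein complexes, and are named after the amino acids of a conserved ATPase motif. They act at nearly every step of the life of an RNA, from splicing and ribosome assembly to export, translation and decay. The m6A mark sits on adenosines within a short consensus whose most common core is GGAC, and in mature messenger RNA it is dense around stop codons and in long internal exons. Chromosome-associated RNA is rich in nascent transcripts that still hold their introns.

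As each list is 1 set of calls with no values per replicate, the spread between replicates is unknown and no test of genotype could be made. Intervals are exact 95% binomial or Poisson intervals and cover counting error only. The fold of a peak is the ratio of IP to local input that the authors' peak caller gave at its summit. It is read within its own list, as 1 IP read was scaled to 0.607 (plus strand) and 0.572 (minus strand) in wild type but to 0.479 and 0.438 in METTL3-/-. METTL3 itself held 2 wild-type peaks and 0 knockout peaks. Library totals are not given in the files, so depth is given as the IP reads recovered at each summit, which ranged from 12 to 262 for wild-type and from 15 to 251 for knockout peaks of helicase genes. The table of genes used here holds bounds but no exons, so whether a peak lies in an exon, an intron or a UTR is not stated.

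Sequence could be read where a peak touched the window of 250 bases before to 50 bases after a gene start. It is shown for 3 such places, chosen after the values were seen, as their letters can be set beside the calls. Peaks in the windows of DHX29 and at the outer start of DDX31 lay on the opposite strand, in the bounds of MTREX and GTF3C4, and are not shown. Each stretch is the part of the peak that lies both in the window and upstream of its start, from RefSeq GRCh38.p14, 5′ to 3′ on the strand of the peak, with GGAC in capitals. The first lies at chr5:177517028-177517211 on the plus strand, upstream of and opposite to DDX41. The second lies at chr9:132663418-132663578 on the minus strand, at an internal start of DDX31. The third lies at chr10:68956087-68956169 on the plus strand, at the 5′ end of DDX21.
DDX41 upstream, wild type: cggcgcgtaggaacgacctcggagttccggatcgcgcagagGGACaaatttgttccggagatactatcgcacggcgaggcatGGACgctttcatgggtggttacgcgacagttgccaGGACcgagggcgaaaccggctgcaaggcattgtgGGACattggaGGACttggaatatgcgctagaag
DDX31 internal start, wild type: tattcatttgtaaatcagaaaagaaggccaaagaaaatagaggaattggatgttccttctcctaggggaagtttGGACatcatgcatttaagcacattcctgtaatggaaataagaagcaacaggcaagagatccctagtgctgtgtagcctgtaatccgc
DDX21 start, wild type: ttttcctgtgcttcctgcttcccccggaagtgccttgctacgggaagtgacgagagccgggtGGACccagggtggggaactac

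The stretch beside DDX41 ends at the edge of the window, while the peak runs on to 177517238, so its letters cover part of the peak. It holds GGAC 5 times. In the same segment and orientation of the 35116 start windows of the table, 49.6% hold GGAC at least once and 0.345% at least 5 times. Both lists called this place, with a fold of 7.78 on 24 IP reads in wild type and 10.1 on 40 IP reads in the knockout (chr5:177517032-177517263). The wild-type peak begins 67 bp upstream of the DDX41 start at 177516961 and lies in no gene of the table, so it is not among the peaks of helicase genes counted here, and DDX41, which takes part in splicing and in innate sensing of nucleic acids, held 0 peaks within its own bounds. The stretches at DDX31 and DDX21 each hold GGAC 1 time, as do 44.6% and 26.2% of windows at least once in the same segments. The DDX31 peak also lies in the window of another internal start, at 132663326, and the 198 bases of it upstream of that start hold GGAC 2 times, as do 18.5% of windows in that segment at least. The peaks at DDX31 and DDX21 were in the wild-type list alone, with folds of 7.18 on 61 IP reads and 5.41 on 34 IP reads. Of the peaks not shown, the wild-type one at DHX29 holds GGAC 0 times in the 49 bases that lie in the window and upstream of the start. The knockout one at the outer start of DDX31 holds it 4 times in 106 such bases, as do 0.188% of windows at least. GGAC was searched on the strand of the peak, and these matches describe the letters and do not show a methylated site.

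Equal numbers of helicase genes carried peaks in both lists. In wild type 31 of 54 genes (57.4%, interval 43.2 to 70.8) held a peak, against 39.6% of all protein-coding genes, and in the knockout also 31 of 54, against 34.8% of all. The genes were not all the same ones, since 23 held peaks in both lists, 8 in wild type alone, 8 in the knockout alone and 15 in neither. A peak in either list was held by 39 of 54 (72.2%, 58.4 to 83.5), against 47.8% of all protein-coding genes, and 23 of these 39 (59.0%, 42.1 to 74.4) had peaks in both, against 55.6%. Of the 31 genes with a wild-type peak 25.8% (11.9 to 44.6) had no knockout peak, beside 32.8% of all protein-coding genes. Of the 31 with a knockout peak 25.8% had no wild-type peak, beside 23.6%. Per 100 kb of gene bounds the helicase genes held 2.69 wild-type and 2.82 knockout peaks, and all protein-coding genes 1.81 and 1.46. These rest on 59 and 62 peaks in 54 genes of 2196 kb together. For all protein-coding genes they rest on 23416 and 18892 overlaps of a peak with a gene, in 20050 genes of 1295680 kb. Per gene, helicase genes held fewer peaks than all protein-coding genes in wild type and more in the knockout. The median helicase gene was 30.0 kb long and the median protein-coding gene 24.1 kb.

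**Figure D1:**
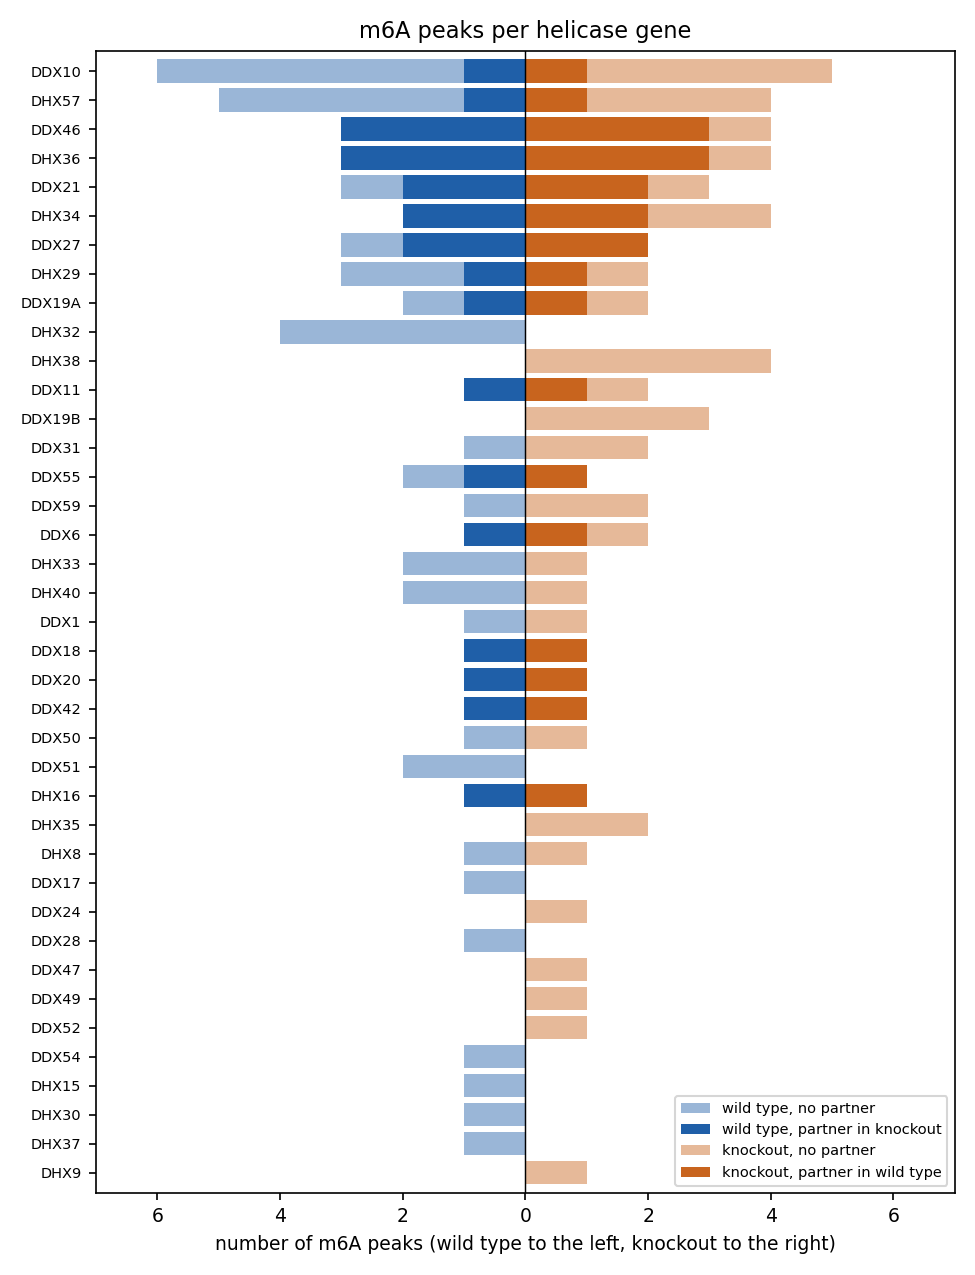
Number of m6A peaks in each of the 39 helicase genes with a peak (horizontal axis, wild type to the left and knockout to the right), with peaks that overlap a peak of the other list in dark colour. DDX10 has most peaks (6 and 5), DDX46 and DHX36 have a partner for each of their 3 wild-type peaks, and DHX32 and DHX38 have peaks in 1 list alone.

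Helicases of the spliceosome, the machine that removes introns, held peaks in either list in 8 of 12 genes, beside 47.8% of all protein-coding genes. DDX46 (the homologue of yeast Prp5, which acts at the branch site) had the strongest peaks of all helicase genes in both lists. Its 3 wild-type peaks, at chr5:134766733-134766943, chr5:134770719-134770973 and chr5:134773555-134773811, had folds of 4.88, 22.2 and 10.4. All of them had a knockout partner, with folds of 4.23, 17.7 and 24.6, and the summits of the pairs lay 6, 13 and 33 bp apart. The summits stood 8.12, 12.1 and 14.9 kb from the 5′ end of this 72.3-kb gene. A knockout peak with a fold of 3.20 at 18.8 kb (chr5:134777424-134777654) had no partner. The fold of the last pair was higher in the knockout, where 203 IP reads (interval 176 to 233) stood against a local input of 3.0 reads, than in wild type, where 118 IP reads (97.7 to 141) stood against 6.0.

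DDX42, which binds the SF3b part of the U2 particle, and DHX16 (Prp2), which acts just before the first step of splicing, had 1 shared pair each. The DDX42 pair at chr17:63817818-63818173 lay 1.19 kb from the 3′ end of the gene and had among the highest read numbers and lowest folds, 2.58 on 211 IP reads in wild type and 2.96 on 251 in the knockout. The DHX16 pair at chr6:30671037-30671293 had folds of 7.70 and 4.13 on 106 and 111 IP reads. DHX8 (Prp22), which releases the spliced messenger RNA, had 1 peak in each list at different places, with a fold of 3.84 at 8.75 kb from its 5′ end in wild type and 11.6 at 1.14 kb in the knockout (chr17:43484960-43485176). DHX40 held 2 wild-type peaks and 1 knockout peak with none shared. DHX15 (Prp43), which takes spent spliceosomes apart, had 1 wild-type peak with a fold of 6.01. DHX35 and DHX38 (Prp16) had peaks in the knockout alone. DHX38 held 4 of them, but 3 lay on the strand opposite to the gene, 1 of these at chr16:72094250-72094449 within the overlapping gene TXNL4B. Its own-strand peak, at chr16:72103493-72103692, had a fold of 9.64 on 51 IP reads. The opposite ones, the others at chr16:72109213-72109412 and chr16:72110192-72110391, had folds of 7.67, 5.11 and 5.95 on 24, 15 and 17 IP reads. DDX5, DDX23, DDX39B and DDX41 had none in their bounds.

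Of the 16 helicases of ribosome assembly, 15 held a peak in either list, beside 47.8% of all protein-coding genes, and DDX56 held none. DDX10 had more peaks than any other helicase gene and is also the longest of them, at 276 kb, followed by 124 kb for DDX60L, which held none. Its 6 wild-type folds were 13.04, 5.02, 4.62, 12.1, 7.29 and 6.28 from the 5′ to the 3′ end, and its 5 knockout folds were 2.69, 8.49, 9.39, 4.16 and 9.20. The wild-type peaks without a partner lay at chr11:108670124-108670372, chr11:108783224-108783423, chr11:108841223-108841458, chr11:108929072-108929271 and chr11:108933986-108934310. Those of the knockout lay at chr11:108806590-108806861, chr11:108810083-108810499, chr11:108914735-108915083 and chr11:108935145-108935346. A single pair was shared, at chr11:108723016-108723274, and it had the most IP reads of the gene, 230 in wild type and 217 in the knockout. Both peaks of this pair also lie in the bounds of LOC124902750, whose strand was not given. Their local input was 27 and 38 reads, the highest of the gene. The strongest wild-type peak, at chr11:108670124-108670372 on 31 IP reads, had its nearest knockout peak 52662 bp away. DDX21, a nucleolar helicase that acts in ribosomal RNA transcription and processing, held 3 and 3 peaks with 2 shared. The pair at chr10:68959628-68960235 had folds of 12.2 and 7.85, and the pair at chr10:68982475-68982777, 2.42 kb from the 3′ end, had 4.41 and 3.18. A knockout peak at chr10:68963832-68964117, with a fold of 5.40, had no partner. The neighbouring paralogue DDX50 had 1 peak in each list, at different places, with folds of 7.12 and 6.25.

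DDX27, which acts in the assembly of the large ribosomal subunit, held 3 wild-type and 2 knockout peaks, and both knockout peaks were shared. Its shared folds were 8.83 and 8.52 at chr20:49223112-49223317 and 5.54 and 6.09 at chr20:49237559-49237758. The strongest wild-type peak of DDX27, at chr20:49224761-49224977 with a fold of 11.4 on 47 IP reads, was in that list alone. DDX18 had the widest upward gap among the pairs of helicase genes, with a fold of 3.66 in wild type and 15.2 in the knockout at chr2:117819480-117819701. The IP reads of the DDX18 pair were 101 (82.3 to 123) and 125 (104 to 149), and the local input was 16 and 3.0 reads, so the local input of the calls differed far more than the IP reads. In DDX55 a wild-type peak of 757 bp near the 3′ end, at chr12:123619410-123620166, enclosed a 200-bp knockout peak, with folds of 10.1 and 5.10 and summits 2 bp apart. DHX33 held 2 wild-type peaks and 1 knockout peak and DDX31 1 and 2, with none shared. DDX51 held 2 peaks, and DDX54 and DHX37 1 each, in wild type alone, with folds from 2.61 to 6.96. DDX24, DDX47, DDX49 and DDX52 had 1 each in the knockout alone, with folds from 4.002 to 6.63. The knockout peak of DDX31 at chr9:132669890-132670089 lay on the opposite strand, in the neighbouring divergent gene GTF3C4.

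Among helicases of translation, decay and RNA granules all 5 genes with peaks had them in both lists, beside 55.6% of all protein-coding genes with a peak. These 5 held 10 wild-type and 13 knockout peaks, and DDX3X and DDX3Y had none. DHX36, which resolves G-quadruplex structures in nucleic acids, matched DDX46 in having a partner for each of its 3 wild-type peaks. From the 5′ end these pairs had wild-type folds of 3.73, 5.85 and 3.99 and knockout folds of 4.71, 10.4 and 7.12, each higher in the knockout. Their local input was lower there, at 6.0, 4.0 and 1.66 reads against 10, 6.6 and 7.0 in wild type, and their IP reads were 73, 117 and 41 against 70, 76 and 54. For the wild-type peaks of the first and the last of these pairs 2 whole read numbers fitted. Only the closest is given, so their reads and local input are less certain. They lay at chr3:154316145-154316345, chr3:154301019-154301220 and chr3:154282320-154282756. A knockout peak without a partner, with a fold of 8.22 at chr3:154300664-154300865, began 154 bp beyond the middle wild-type peak, and was the nearest to one of all peaks without a partner. DHX29, needed for initiation on structured leaders, had 3 and 2 peaks with 1 shared (folds 6.40 and 6.93, at chr5:55294100-55294307). Its peaks without a partner lay at chr5:55283382-55283587 (9.55) and chr5:55286625-55286826 (8.67) in wild type and at chr5:55276327-55276526 (7.07) in the knockout. DDX6, a core protein of P-bodies, had 1 and 2 with 1 shared, with folds of 9.68 and 5.90 at chr11:118786074-118786440. DDX1 had 1 in each list, 2509 bp apart, with folds of 7.61 and 5.16.

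DHX34, a factor of nonsense-mediated decay, had the widest downward gap. Its peak at chr19:47349420-47349926, with the summit 419 bp from the 5′ end, had a fold of 19.96 in wild type, and its knockout partner, with a summit 6 bp away, had 2.52. Among the 4863 pairs of overlapping peaks in protein-coding genes no other pair had a lower ratio of knockout to wild-type fold. The IP reads of the DHX34 pair were alike, 97 (interval 78.7 to 118) in wild type and 82 (65.2 to 102) in the knockout, whereas the local input was 2.0 and 15 reads. A second DHX34 pair, at chr19:47350697-47350912, had the opposite order, with folds of 4.52 and 7.04 on 43 and 42 IP reads. DHX34 also held 2 knockout peaks without a partner, at chr19:47352768-47353067 and chr19:47377490-47377689, whose folds were 2.81 and 3.47.

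**Figure D2:**
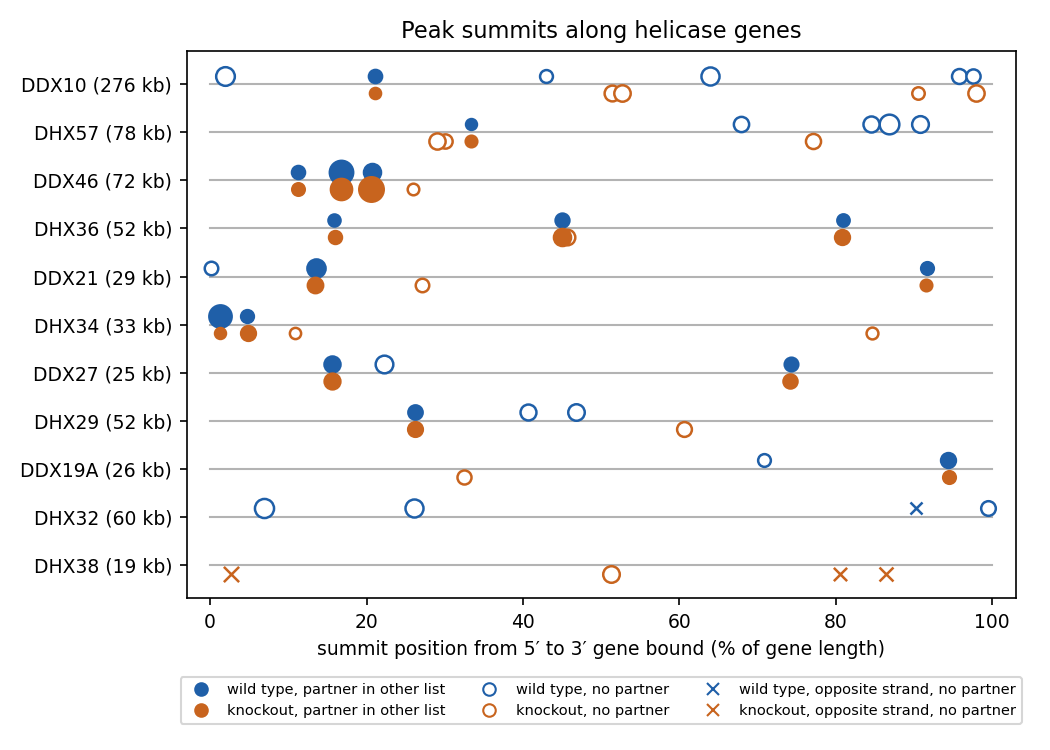
Summits along the 11 helicase genes with 4 or more peaks in both lists together (vertical axis, with gene length), as percent of the gene length from the 5′ to the 3′ bound; wild-type peaks are drawn above and knockout peaks below each line, larger symbols have a higher fold, filled symbols have a partner in the other list, and crosses lie on the opposite strand. The 3 pairs of DDX46 stand between 11.2% and 20.6% of the gene length, those of DHX36 are spread along it, and the 3 peaks of DHX57 nearest its 3′ end are in wild type alone.

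The remaining roles hold few genes. DDX20 (Gemin3), a subunit of the SMN complex that assembles spliceosomal particles, had the widest peaks of all helicase genes, 1031 bp in wild type at chr1:111765742-111766772 and 900 bp in the knockout. They had folds of 19.4 on 63 IP reads and 12.5 on 71, with summits at 82.9% and 85.4% of the gene length. DDX17, a cofactor of transcription and of microRNA processing, had 1 wild-type peak with the most IP reads of any helicase peak, 262, and a fold of 3.51. DHX9 (RNA helicase A) had 1 knockout peak with a fold of 5.45. Of the export helicases, DDX19A held 2 and 2 peaks with 1 shared pair (7.18 and 4.36, at chr16:70371754-70372160) and its neighbour DDX19B held 0 and 3, while DDX25, DDX39A and DDX39B had none. The unshared DDX19A peaks lay at chr16:70365625-70365824 in wild type (4.47) and chr16:70355334-70355626 in the knockout (6.08). DDX19A and DDX19B are near-identical copies of one another, and DDX11, a DNA helicase of sister chromatid cohesion, has close copies elsewhere, so their reads may be misplaced. DDX11 had 1 and 2 peaks with 1 shared pair, with folds of 5.65 and 4.13 on 194 and 248 IP reads at chr12:31084821-31085101. The mitochondrial helicases DDX28 and DHX30 had 1 wild-type peak each, at chr16:68021855-68022314 and chr3:47837680-47837992 with folds of 4.73 and 7.17, and 0 knockout peaks. The genes of innate immunity (DDX60, DDX60L and DHX58) and of the germline (DDX4, DDX25, DDX43 and DDX53) held 0 peaks in either list. Expression of the genes was not measured here, so a gene without a peak cannot be told apart from a gene without enough RNA.

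DHX57 and DHX32, whose roles are less settled, held 8 of the 36 wild-type peaks without a partner. Of their 5 and 4 wild-type peaks 1 and 0 had a partner, beside 21.3% of wild-type peaks in all protein-coding genes. That share of all was 8.17% at up to 25 IP reads, 22.5% at 26 to 50 and 44.8% at 51 to 100. The wild-type peaks of DHX57 had 15 to 46 IP reads and those of DHX32 12 to 90. DHX57 had 5 wild-type and 4 knockout peaks, with a single shared pair at chr2:38849816-38850015 (folds 2.48 and 3.21). Its other 4 wild-type peaks, with folds of 9.85, 14.8, 8.85 and 7.73 on 15 to 28 IP reads, all lay between 53.1 and 71.0 kb from the 5′ end, at chr2:38804789-38805072, chr2:38807949-38808152, chr2:38809710-38809981 and chr2:38822729-38822928. The knockout peaks without a partner had folds of 7.49, 6.41 and 9.14, at chr2:38815621-38815820, chr2:38852294-38852624 and chr2:38852977-38853389. The shared pair and the peaks at chr2:38852294-38852624 and chr2:38852977-38853389 also lie in the bounds of LOC105374470, whose strand was not given. Of the 4 wild-type DHX57 peaks without a partner, 3 had a local input at the minimum of the wild-type list, 0.147 reads, well under 1 read. DHX32 had 4 wild-type and 0 knockout peaks. The strongest, at chr10:125892201-125892455, had a fold of 13.8 on 90 IP reads (72.4 to 111), and another at chr10:125880650-125881132 had 11.9 on 40. One of the 4 lay opposite to the gene, at chr10:125841955-125842281 within the bounds of BCCIP, with a fold of 3.68. The remaining one, at chr10:125836608-125836807 and also within the bounds of BCCIP, had 6.86 on 12 IP reads. DDX59 had 1 wild-type and 2 knockout peaks with none shared.

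By place, 23 of 59 wild-type peaks of helicase genes (39.0%, interval 26.5 to 52.6) had a knockout peak that overlapped on the same strand, against 21.3% of wild-type peaks in all protein-coding genes. In the knockout 23 of 62 (37.1%, 25.2 to 50.3) had a wild-type partner, against 26.5%. Helicase peaks also rested on more reads, with a median of 46 IP reads in wild type against 26 in all protein-coding genes, and 51.5 against 32 in the knockout. Their median local input was 2.84 reads against 1.0 in wild type and 3.0 against 1.0 in the knockout. At like read numbers the shares were close to those of all protein-coding genes. They were 22.7% against 22.5% at 26 to 50 IP reads and 52.9% (27.8 to 77.0) against 44.8% at 51 to 100 in wild type, and 4 of 20 peaks against 23.3% and 44.4% against 43.1% in the knockout. Above 100 IP reads 8 of 10 wild-type peaks (against 71.0%) and 11 of 14 knockout peaks (against 71.3%) had a partner, and the 2 of wild type without were in DDX17 and DDX51. At up to 25 IP reads 1 of 10 wild-type peaks had one, against 8.17%, and 0 of 10 knockout peaks, with an upper bound of 30.8%, against 9.58%.

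**Figure D3:**
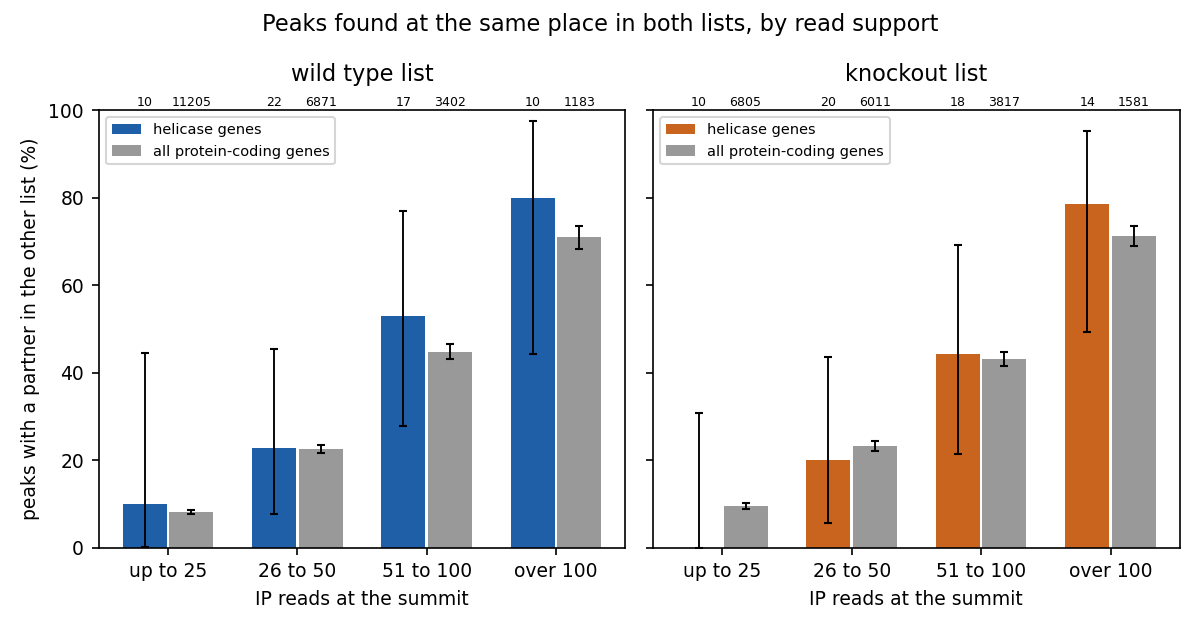
Percent of peaks that overlap a peak of the other list on the same strand (vertical axis), by IP reads at the summit, for helicase genes and all protein-coding genes in each list; bars are shares, lines are exact 95% intervals of counting error, and the number of peaks stands above each bar. The intervals of helicase genes include the share of all protein-coding genes in every class.

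**Figure D4:**
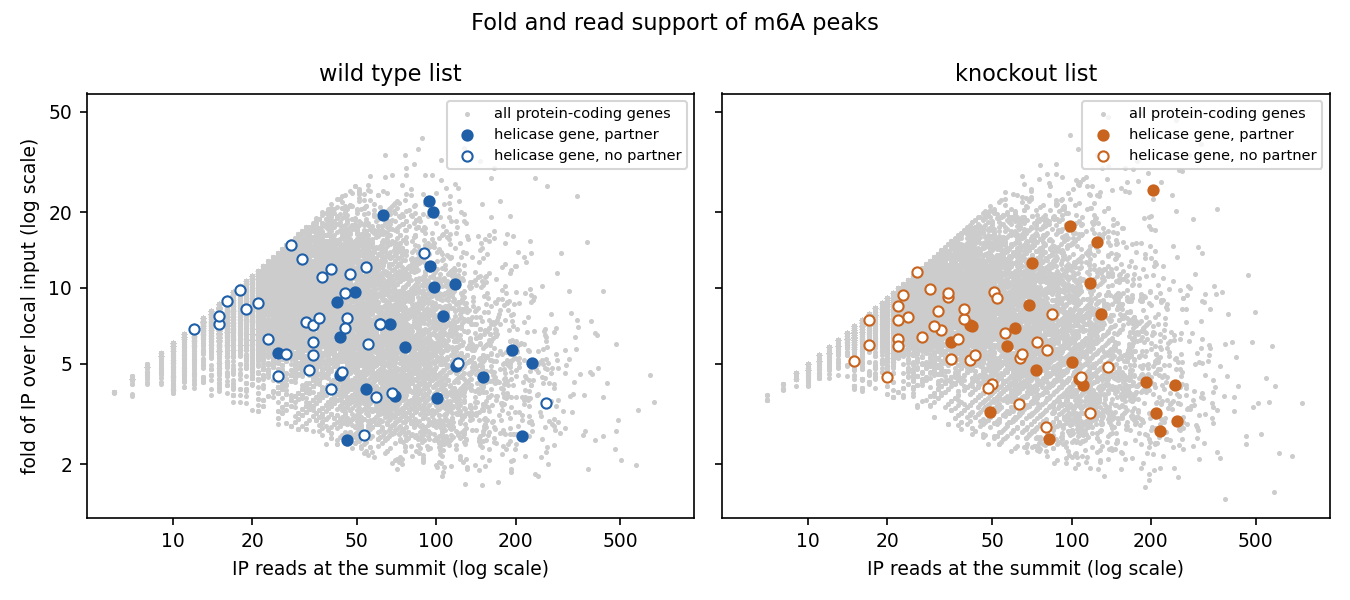
Fold of IP over local input against IP reads at the summit (both on log scales) for helicase peaks with and without a partner, over the peaks of all protein-coding genes in grey. Peaks with a partner stand to the right, with medians of 94 IP reads in wild type and 100 in the knockout, against 36.5 and 37 for those without.

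Partners met at nearly the same base. In the 23 pairs the summits lay a median of 12 bp apart (quartiles 6 and 24.5), and 20 of 23 were within 50 bp, against a median of 29 bp and 64.1% within 50 bp in the 4863 pairs of all protein-coding genes. The 3 wider ones were in DDX20 (303 bp), DHX36 (115 bp) and DHX57 (54 bp). Distances between summits were not compared at like read numbers, and helicase peaks rested on more IP reads than those of all protein-coding genes. For the 36 wild-type peaks without a partner, the nearest peak of the other list on the same strand was a median of 10.97 kb away. For the 39 of the knockout it was 13.1 kb, and 1 and 2 of them were within 1 kb. These distances were not computed for all protein-coding genes, so they cannot be called particular to helicase genes. The median fold of helicase peaks was 7.12 in wild type (quartiles 4.81 and 9.61) against 7.26 in all protein-coding genes, and 6.17 in the knockout (4.51 and 8.04) against 7.06.

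Within the pairs the fold was higher in the knockout in 10 of 23 and in wild type in 13, on scales that differ between the lists. Knockout over wild-type IP reads ranged from 0.759 to 1.72 (median 1.19), whereas knockout over wild-type local input ranged from 0.188 to 7.50 (median 1.40). Neither ratio was adjusted for depth, and the pairs of a gene are not independent. Local input is a solved value and need not be a whole count of reads. The lowest ratio of IP reads, in DHX36, rests on a wild-type peak that 2 whole read numbers fitted. The pairs with the largest gaps in fold, in DHX34 and DDX18, were those with the largest gaps in local input. Local input was solved from the fold, so where IP reads are alike this follows from the formula and is no separate observation. The part of local input in the gaps was not tested.

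**Figure D5:**
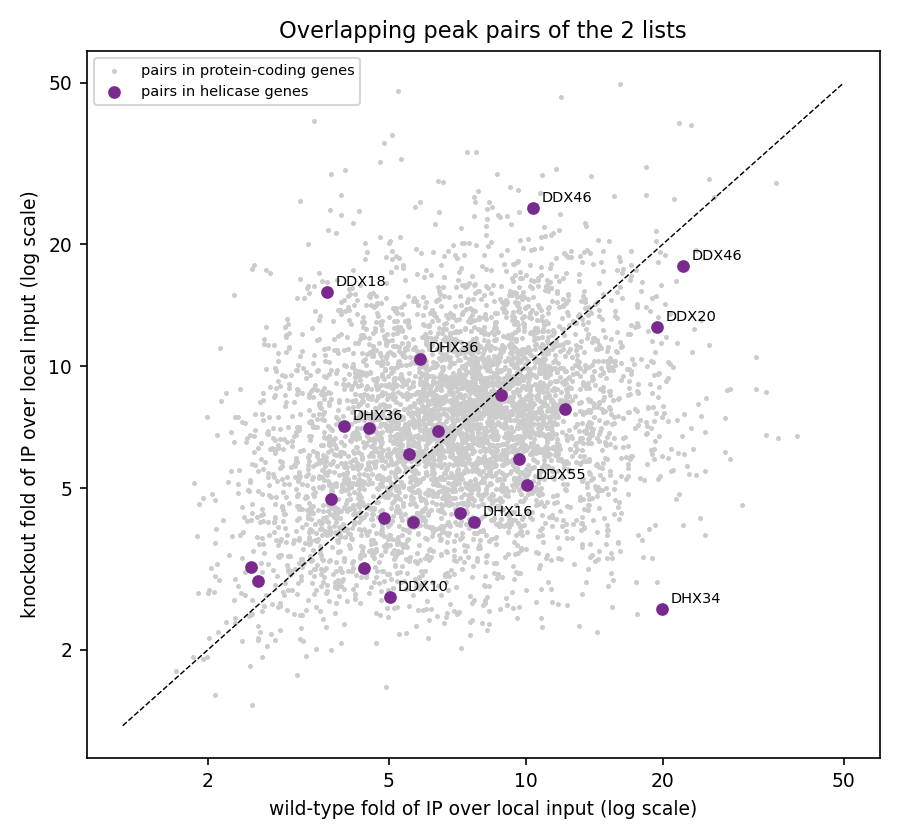
Wild-type fold (horizontal) against knockout fold (vertical), both on log scales, for the 23 overlapping pairs in helicase genes and the 4863 pairs in protein-coding genes; the dashed line marks equal folds, which is not equal methylation since the lists are scaled differently. DHX34 lies farthest below the line, at 19.96 and 2.52, and DDX18 farthest above it among helicase pairs, at 3.66 and 15.2.

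Strand was given for 49 of the 54 genes, and was not given there for DDX18, DDX49, DDX52, DHX33 and DHX58. In wild type 55 of 56 peaks (98.2%) lay on the strand of their helicase gene, against 92.0% in all protein-coding genes, and in the knockout 53 of 58 (91.4%) against 91.4%. The 5 opposite peaks of the knockout were 3 in DHX38, 1 in DDX19B and 1 in DDX31. Of own-strand peaks, 24 of 55 in wild type (43.6%, interval 30.3 to 57.7) and 25 of 53 in the knockout (47.2%, 33.3 to 61.4) had the summit in the first of 3 equal parts of the gene, against 33.4% and 32.7% in all protein-coding genes. The middle part held 11 and 13 and the last part 20 and 15, and the shares of all protein-coding genes were not computed for these parts. Summits within 500 bp of either gene end numbered 4 of 55 in wild type (7.27%, against 2.97%) and 1 of 53 in the knockout (1.89%, against 2.38%). The 4 were in DDX21, DDX51, DHX32 and DHX34, and the knockout one was in DHX34.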

How the data were processed

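The deposited data are 2 lists of m6A peaks in stranded libraries of chromosome-associated RNA, 1 per genotype. Build hg38, MACS2 2.2.7.1, HISAT2 2.2.1 and SAMtools 1.15.1 come from the submitters' processing notes, without roles or settings. Pooling of replicates before calling: not given in the sources used here. The deposited ratio is the fold of IP to local input at each summit, the −log10 columns are the authors' p-value and q-value, the deposited summit offset gives the summit, and the deposited score was not used.

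Computed here, with Python 3.11.15, numpy 2.4.6, pandas 2.3.3, SciPy 1.17.1 and matplotlib 3.10.9: overlaps of 1 bp with RefSeq bounds, on either strand; partners, meaning 1 bp of overlap with a peak of the other list on the same strand; gene strands and starts from the RefSeq start windows; and IP reads with local input, solved from fold = (scaled IP + 1) / (local input + 1) and its Poisson p. A whole read number reproduced −log10 p within 0.005 for all but 2 peaks, and 93.7% to 97.5% of peaks, by list and strand, had a single such number. Where more than 1 fitted, the closest was used. The solution was tested on data simulated with this same formula, where 99.95% or more of the scored read numbers came back. The simulated read numbers and local inputs did not reach the largest ones found here. Such a simulation cannot show that the deposited values follow the formula.

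The genes and the 10 roles were chosen with earlier results of these data known. Every helicase gene with a peak is named. Positions and folds are given for the 10 genes with most peaks (11, as 3 tied at 4 peaks), the 5 highest folds per list, every pair, and the gene with most peaks per role; other details were chosen after the values were seen. The planned protein stretches were not used here.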

Additional observations from a re-analysis of the deposited data

How the results depend on the processing

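Alternatives were a −log10 q of 5 or more, equal numbers of strongest peaks, 50% reciprocal overlap, partners within 200 bp or on either strand, peaks on the gene's own strand, with the summit in the gene or in no other gene, end windows of 200 and 1000 bp, and, added after seeing the data, leaving out DDX11, DDX19A and DDX19B. Of 60 values 57 stayed within 1.5 times the count or within the interval of the reported value. Positions were already taken from own-strand peaks, so the own-strand alternative could not change them. Most alternatives keep most of the same peaks and the intervals are wide, so staying within them is a weak check. Over the alternatives the share of wild-type helicase peaks with a partner ran from 33.9% to 40.7% and that of knockout peaks from 32.3% to 41.5%. The 3 that moved were shares near a gene end: 1.82% in wild type and 0.0% in the knockout with a 200-bp window, and 0.0% in the knockout at −log10 q of 5 or more, each resting on 1 peak or none. No paired analysis was possible because the lists hold no values per replicate, and for the same reason no replicate could be left out. At up to 25 IP reads there were 10 helicase peaks in each list, so the interval of their shares is wide.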
